A study of Mus musculus with 12 samples.

Results

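The Sall genes (spalt-like; Sall1, Sall2, Sall3 and Sall4) encode large zinc finger transcription factors. Their RNA was followed in mouse embryonic stem cells of the line E14, which was derived from a male embryo. The members were chosen by symbol, with the levels measured in these libraries in view, because their differences between knockout and wild type do not all point the same way. All 4 symbols were found among 52535 gene entries, and all 4 passed the filter on low counts that left 14946 genes for testing.

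The study compared E14 cells labelled as knockout of Bcat1, a cytosolic transaminase of branched-chain amino acids, with unmodified E14 cells. KO1 is clone 1# and KO2 is clone 2# of that knockout, each a line grown from its own clone, and WT is wild type E14. There were 2 libraries per group, 6 in all, and the 6 samples of a differentiation time course were not analysed here. Cells of every group grew in medium with 15% fetal bovine serum, LIF (a cytokine that holds stem cells undifferentiated) and 2i (a pair of kinase inhibitors). Total RNA was depleted of ribosomal RNA and sequenced. How the Bcat1 alleles were altered is not given in the sources used here. Whether the libraries of a group are separate cultures is not labelled. The p-values therefore reflect how far these libraries vary, and that variation may be technical. What comes from the knockout and what comes from the clones as such cannot be told apart with these groups.

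Gene counts per library totalled 11976149 to 12864573 in the KO1 and KO2 libraries and 13294805 to 13923262 in the WT libraries. Bcat1 RNA was as abundant in the libraries labelled knockout (609 ± 38.3 CPM, the count scaled to library size, SD, n = 4) as in WT (607 ± 8.35 CPM, SD, n = 2). Its edgeR quasi-likelihood log2 difference was 0.01 ± 0.08 (SE; adjusted p = 0.977), so the RNA does not show which libraries are knockout, and the groups are as labelled. Of 8 stem cell markers, 0 were at 0 counts. Their summed level was 4646 to 4950 CPM in the KO libraries and 5383 to 5477 CPM in the WT libraries, and 1 of the 8 fell, where 2.11% of all genes fell. Of 8 primitive endoderm, 8 neural and 8 fibroblast markers, 3 in each list stayed under 1 CPM in all libraries, and Lum and Dcn, which mark fibroblasts, were at 0 throughout. The summed level of the primitive endoderm list was 435 to 442 CPM in KO2, 258 to 284 CPM in KO1 and 300.3 to 325 CPM in WT. That of the neural list was 91.4 to 109.975 CPM in the KO libraries and 90.9 to 103 CPM in WT. The fibroblast list summed to 2725 to 3019 CPM in the KO libraries and 2439 to 2578 CPM in WT, and without Fn1, which stem cells express too, to 20.7 to 33.5 CPM in the KO libraries and 23.6 to 23.8 CPM in WT. In the neural and the fibroblast list 1 marker each rose, where 4.25% of all genes rose, and in the primitive endoderm list 0 were called. The part of these markers in the Sall levels was not tested. In bulk RNA, fewer cells that express a gene and less RNA per cell cannot be told apart.

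As background, Sall proteins bind DNA through pairs of C2H2 zinc fingers spread along the protein. A short motif at the very N-terminus recruits NuRD, a complex that remodels nucleosomes and removes acetyl groups from histones, so that Sall factors often act as repressors. In mouse embryonic stem cells Sall4 is the best studied member: it works with Oct4 (Pou5f1) and Nanog, and its loss is known to let trophectoderm genes such as Cdx2 come up. Sall1 can associate with Nanog in the same cells. In humans, mutations of SALL1 cause Townes-Brocks syndrome and mutations of SALL4 cause Duane-radial ray syndrome.

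The first 36 coding bases, 12 codons that in full-length Sall4 encode the NuRD-recruiting motif, are shown for Sall4 and Sall2 because they set apart the transcripts of Sall2. They were read 5′ to 3′ from the GENCODE M21 transcripts on GRCm38, all on the minus strand, and capitals mark bases equal to Sall4 at the same position. The first coding base of full-length Sall4 is at chromosome 2 position 168767029, that of the upstream Sall2 start at chromosome 14 position 52328175 and that of the downstream Sall2 start at chromosome 14 position 52316109.
Sall4: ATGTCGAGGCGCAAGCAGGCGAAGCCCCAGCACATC
Sall2 upstream start: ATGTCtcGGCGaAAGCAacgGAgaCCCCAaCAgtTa
Sall2 downstream start: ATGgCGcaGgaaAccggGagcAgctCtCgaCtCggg
The upstream Sall2 start equals Sall4 at 24 of the 36 bases, whereas the downstream Sall2 start equals it at 13. The annotation also lists 2 other Sall4 transcripts that open with the same 36 bases and have 834 and 1869 coding bases, against 3201 in the full-length transcript. Counts per gene do not separate these transcripts, so every level below is the sum over all transcripts of a gene.

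Sall4 RNA stood lower in both knockout clones than in WT. Sall4 (chromosome 2, 168748332 to 168767943, minus strand, GRCm38) had 195 and 221 CPM in KO1 and 221 and 224 CPM in KO2, against 404 and 415 CPM in WT. The highest KO library lay far below the lowest WT library, so the groups did not overlap. The log2 difference, KO minus WT, was -0.93 ± 0.08 (SE) over both clones, -0.98 ± 0.08 in KO1 and -0.88 ± 0.08 in KO2, all from edgeR fits. The first library of KO1 was the lowest of the 4 KO libraries, and without it the difference over both clones was -0.88. A noncoding transcript on the opposite strand, Gm14261, overlaps the start of Sall4, and its 1 to 9 counts in the KO libraries and 0 to 8 counts in the WT libraries were too few for a test.

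Sall1 RNA stood higher in both clones than in WT. Sall1 (chromosome 8, 89027235 to 89044162, minus strand) had 149.6 and 147 CPM in KO1 and 219 and 208 CPM in KO2, against 81.0 and 76.0 CPM in WT. The libraries fell into 3 steps without overlap, with KO2 at the top, KO1 between and WT at the bottom. The log2 difference from WT was 1.204 ± 0.18 (SE) over both clones, 0.92 ± 0.08 in KO1 and 1.44 ± 0.08 in KO2. The wider error over both clones holds the step between them.

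Sall2, a factor that in human cells is tied to cell cycle exit, had the largest fold difference of the family and the lowest level per length. Its row (chromosome 14, 52311172 to 52328762, minus strand) held 192 and 172 counts in KO1, 197 and 188 in KO2, and 56 and 67 in WT. On the CPM scale that is 15.2 and 13.2 in KO1 and 16.6 and 14.8 in KO2, against 4.31 and 4.94 in WT, so the lowest KO library was above the highest WT library. The log2 difference from WT was 1.69 ± 0.19 over both clones, 1.61 ± 0.19 in KO1 and 1.76 ± 0.19 in KO2. Leaving out each library in turn gave 1.59 to 1.79 over both clones.

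Since Sall1 and Sall2 were both higher in the clones, the windows around their annotated starts are shown, 250 bases before to 50 bases after, from RefSeq on GRCm38.p6. RefSeq lists 3 such windows for Sall1 and 2 for Sall2, and the Sall1 window printed is the one whose start equals the end of the GENCODE gene. Capitals mark the motif ATATT or its reverse complement AATAT, an AT-rich word of the kind the C-terminal fingers of Sall4 are known to bind. Both strands were searched, and the 2 matches do not overlap.
Sall1 chr8:89044113-89044412 (minus strand): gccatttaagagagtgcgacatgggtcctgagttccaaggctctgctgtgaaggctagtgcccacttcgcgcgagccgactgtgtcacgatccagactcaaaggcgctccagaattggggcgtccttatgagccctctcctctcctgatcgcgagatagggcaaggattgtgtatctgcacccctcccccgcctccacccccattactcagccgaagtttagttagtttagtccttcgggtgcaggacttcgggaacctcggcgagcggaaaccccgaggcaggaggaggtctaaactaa
Sall2 upstream start chr14:52328621-52328920 (minus strand): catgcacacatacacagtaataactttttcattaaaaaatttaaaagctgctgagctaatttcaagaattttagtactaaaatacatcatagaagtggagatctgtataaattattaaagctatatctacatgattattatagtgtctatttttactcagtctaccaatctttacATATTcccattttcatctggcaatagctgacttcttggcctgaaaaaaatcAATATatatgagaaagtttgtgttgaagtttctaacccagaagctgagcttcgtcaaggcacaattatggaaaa
Sall2 downstream start chr14:52316274-52316573 (minus strand): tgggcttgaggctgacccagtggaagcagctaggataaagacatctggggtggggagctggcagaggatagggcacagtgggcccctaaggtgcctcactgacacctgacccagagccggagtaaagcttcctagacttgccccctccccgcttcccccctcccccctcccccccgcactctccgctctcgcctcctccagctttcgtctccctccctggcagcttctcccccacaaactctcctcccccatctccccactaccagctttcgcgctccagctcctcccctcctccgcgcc
The upstream Sall2 window held 2 matches, while the downstream Sall2 window and all 3 Sall1 windows held 0. Of 32851 promoter windows of the same length, 25.3% held the motif on either strand. The upstream Sall2 window was 30.3% G or C with 1 CG dinucleotide, and 1.03% of all windows were poorer in G and C. The downstream Sall2 window was 65.0% G or C with 10 CG dinucleotides, and the printed Sall1 window 57.3% with 18, where the median window had 52.7% and 7. The Sall1 windows not printed were richer, at 70.0% with 27 and 79.7% with 39. It is the upstream Sall2 start that leads into the transcript whose opening codons resemble those of Sall4. Which of the starts the reads came from was not measured, and a match describes letters only.

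**Figure D1:**
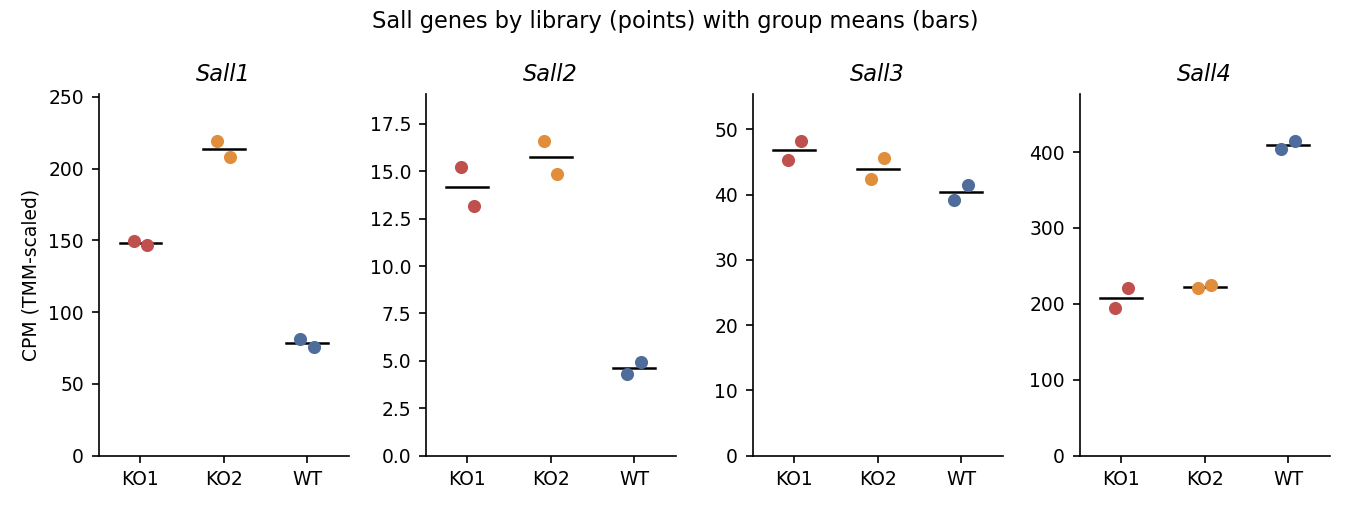
CPM (TMM-scaled, vertical axis from 0, a scale of its own per panel) of Sall1, Sall2, Sall3 and Sall4 in each library of KO1, KO2 and WT; points are libraries and bars group means of 2. Sall4 lies at 195 to 224 CPM in the KO libraries and at 404 and 415 CPM in WT, Sall1 forms 3 steps, Sall2 is low in WT and Sall3 differs little.

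Sall3, whose human counterpart is known to bind the DNA methyltransferase DNMT3A, was nearly level. Its row had 45.3 and 48.3 CPM in KO1 and 42.4 and 45.6 CPM in KO2, against 39.1 and 41.5 CPM in WT. The lowest KO library was less than 1 CPM above the highest WT library. The log2 difference from WT was 0.17 ± 0.10 (SE) over both clones, 0.21 ± 0.11 in KO1 and 0.13 ± 0.11 in KO2. Because the members were chosen for their differences between knockout and WT, these values and the lack of overlap are a description without a p. How many of all genes show no overlap between KO and WT libraries was not counted. Over all 14946 genes, 6.36% passed the test in that comparison, 4.25% higher and 2.11% lower in the KO libraries. The contrasts of KO1 and KO2 share the WT libraries.

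The difference between the clones played no part in choosing the members, and there Sall1 alone of the 4 passed the test. Sall1 averaged 214 ± 8.23 CPM in KO2 and 148 ± 2.16 CPM in KO1 (SD, n = 2 each), a log2 difference, KO2 minus KO1, of 0.53 ± 0.08 (SE; edgeR quasi-likelihood test, adjusted p = 3.16e-04). Both KO2 libraries were above both KO1 libraries, and the adjusted p stayed between 1.00e-07 and 0.0153 over all alternatives, each library left out included. Sall2 differed by 0.15 ± 0.17 (adjusted p = 0.621), with a 95% interval of -0.20 to 0.50. Sall3 differed by -0.09 ± 0.11 (adjusted p = 0.653; interval -0.31 to 0.14) and Sall4 by 0.10 ± 0.08 (adjusted p = 0.481; interval -0.07 to 0.27). Between the clones 14.3% of all genes tested passed, 6.62% higher and 7.71% lower in KO2, so 1 call among 4 genes is not far from that share. The Sall1 difference had an interval of 0.36 to 0.70; whether it exceeded those of the other members was not tested. Without the first library of KO1 the Sall4 difference between clones was 0.02, and without the second library of KO1 it was 0.19.

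Scaled by length, the balance within the family differed between knockout and WT, while the sum differed less. Levels of different genes were compared as CPM per kilobase of annotated exon, with 5265 bases for Sall1, 5433 for Sall2, 7481 for Sall3 and 5536 for Sall4. Sall4 made up 48.6% and 52.1% of the family sum in KO1 and 44.2% and 45.6% in KO2, against 77.3% and 78.2% in WT. Sall1 made up 39.2% and 36.4% in KO1 and 46.2% and 44.4% in KO2, against 16.3% and 15.1% in WT. These shares did not overlap between KO and WT libraries, and Sall1 and Sall4 came close to parity in KO2. The shares rest on the levels for which the members were chosen, so they are a description and no separate support. The share of a member also moves when the level of another member differs. The ratio of Sall4 to Sall1 per kilobase was 1.24 and 1.43 in KO1 and 0.956 and 1.03 in KO2, against 4.75 and 5.19 in WT. Sall3 held 6.28% to 8.42% in the KO libraries and 5.54% to 5.79% in WT, and Sall2 3.08% to 3.86% in the KO libraries and 0.841% to 0.949% in WT. The sum of all 4 was 72.5 and 76.6 CPM per kilobase in KO1 and 90.2 and 88.8 in KO2, against 94.4 and 95.8 in WT. The order of the levels per kilobase was Sall4, Sall1, Sall3 and Sall2 in KO1 and WT. In KO2, Sall1 and Sall4 did not differ beyond their spread on these lengths, at 40.6 ± 1.56 and 40.2 ± 0.502 CPM per kilobase (SD, n = 2). That closeness depends on the length used, which for Sall4 is 5073 bases if its longest transcript is taken and for Sall1 is unchanged. The mean KO share then went from 41.5% to 39.6% for Sall1 and from 47.6% to 49.5% for Sall4.

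Set among the 14549 tested genes with a single annotated position, the members span much of the range of levels per kilobase. Sall4 ranked 1360 to 1499 from the top in the KO libraries and 719 to 746 in WT. Sall1 ranked 1308 to 2023 in the KO libraries and 3642 to 3833 in WT. Sall3 ranked 6446 to 6871 in the KO libraries and 6913 to 7089 in WT, near the middle. Sall2 ranked 8721 to 9530 in the KO libraries and 11441 to 11633 in WT.

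**Figure D2:**
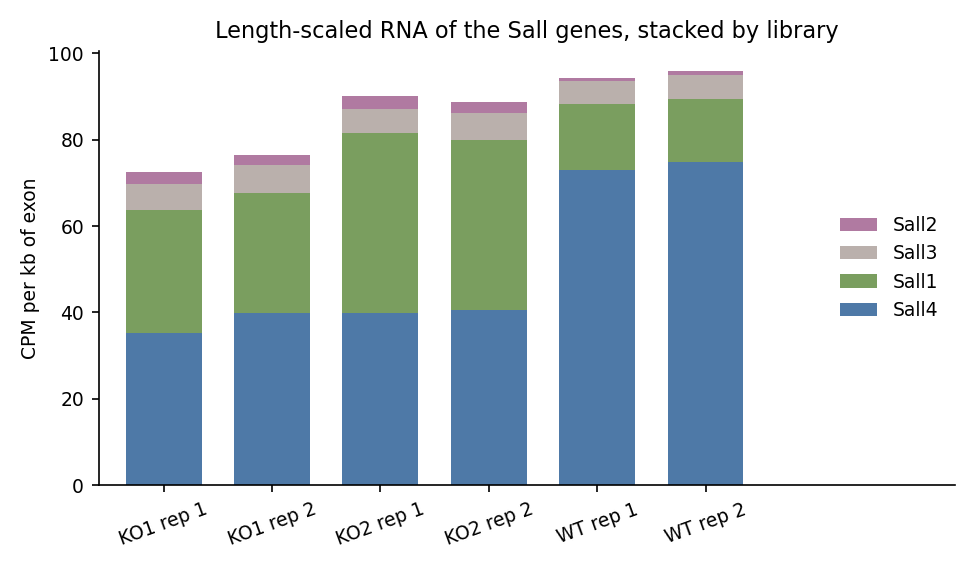
CPM per kilobase of exon (vertical axis from 0) of Sall4, Sall1, Sall3 and Sall2 stacked in each library of KO1, KO2 and WT. Sall4 makes up 44.2% to 52.1% of the stack in the KO libraries and 77.3% to 78.2% in the WT libraries, and the Sall1 layer is thickest in KO2.

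Genes beside Sall4 on chromosome 2 were lower in the clones too. Of the 10 tested genes on each side of Sall4, 20 in all, 10 fell and 0 rose in the KO libraries (edgeR, adjusted p at most 0.05), where 2.11% of all genes fell. Their median log2 difference was -0.86, against 0.00 over all genes tested, and 18 of the 20 were below 0. The nearest tested gene on either side fell: Atp9a, a membrane lipid transporter, averaged 99.2 ± 10.6 CPM in KO and 176 ± 10.1 in WT (log2 difference -0.82 ± 0.10, adjusted p = 0.00248). Zfp64, a zinc finger factor, averaged 109.855 ± 22.4 CPM in KO and 211 ± 5.28 in WT (-0.94 ± 0.16, adjusted p = 0.00935), and it was also higher in KO2 than in KO1 (adjusted p = 0.00358). Farther out, Ptpn1, a tyrosine phosphatase of insulin and cytokine signalling, fell by 1.13 ± 0.09, Adnp, a chromatin factor that joins the NuRD ATPase Chd4 in another complex, by 1.69 ± 0.19, Pard6b, a cell polarity protein, by 0.85 ± 0.10, and Pfdn4, a subunit of the chaperone prefoldin, by 0.88 ± 0.10 (adjusted p of 0.00158 or less). With 20 genes on each side 18 of 40 fell, and with 5 on each side 5 of 10. The 10 calls became 3 without the first WT library and 5 without the second, and Ptpn1 and Pard6b alone kept theirs in every alternative. Between KO2 and KO1, 3 of the 20 were higher in KO2 and 2 lower, where 14.3% of all genes were called in either direction, and the 5 calls became 1 without either KO2 library. That Sall4 lies in a lowered stretch was known from earlier results of these data, and what underlies it was not tested.

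Fewer genes were called beside the other members, though windows counted in genes differ in length. They reached 1559 kb to lower and 4944 kb to higher positions at Sall1, 326 and 2153 kb at Sall2, and 2216 and 3872 kb at Sall3. At Sall4 they reached 816 and 3608 kb. Beside Sall1, 3 of 20 genes rose and 0 fell, where 4.25% of all genes rose, and the median log2 difference was 0.40. Between KO2 and KO1, where Sall1 was higher, 0 of the 20 were higher and 5 lower in KO2, where 7.71% of all genes were lower, or 3 lower without the second KO2 library. The nearest neighbours were not called: Cyld, a deubiquitinase, at 0.36 ± 0.15 (adjusted p = 0.175) and Tox3, an HMG-box factor, at 1.08 ± 0.58 (adjusted p = 0.308). The rises included Snx20, a sorting nexin, by 1.13 ± 0.25 (adjusted p = 0.0281) and Chd9, a chromatin remodeller, by 0.50 ± 0.12 (adjusted p = 0.0402). Beside Sall2, 0 rose and 1 of 20 fell, where 2.11% of all genes fell: Abhd4, a lipase, by 0.44 ± 0.08 (adjusted p = 0.0150). Its nearest tested neighbours were Mettl3, the RNA methyltransferase that makes N6-methyladenosine, at -0.07 ± 0.10 (adjusted p = 0.737) and the pseudogene Rps19-ps2 at -0.34 ± 0.43 (adjusted p = 0.691). Beside Sall3 (chromosome 18, 80966376 to 80986771, minus strand), 1 of 20 rose, where 4.25% of all genes rose: Pqlc1, a PQ-loop membrane protein, by 0.92 ± 0.15 (adjusted p = 0.00950). There Atp9b, a paralog of Atp9a, stood at 0.13 ± 0.11 (adjusted p = 0.536) and the pseudogene Gm17383 at -0.18 ± 0.16 (adjusted p = 0.568). By start position, the nearest tested genes lay at -330 and 1220 kb from Sall1, -16.3 and 592 kb from Sall2, and -232 and 1372 kb from Sall3. For Sall4 they lay at -114 and 145 kb. Without either WT library all 5 calls beside Sall1, Sall2 and Sall3 were lost. The call of Snx20 was lost without the second KO1 library too, and that of Chd9 without the first KO2 library or with the replicate number as a block.

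**Figure D3:**
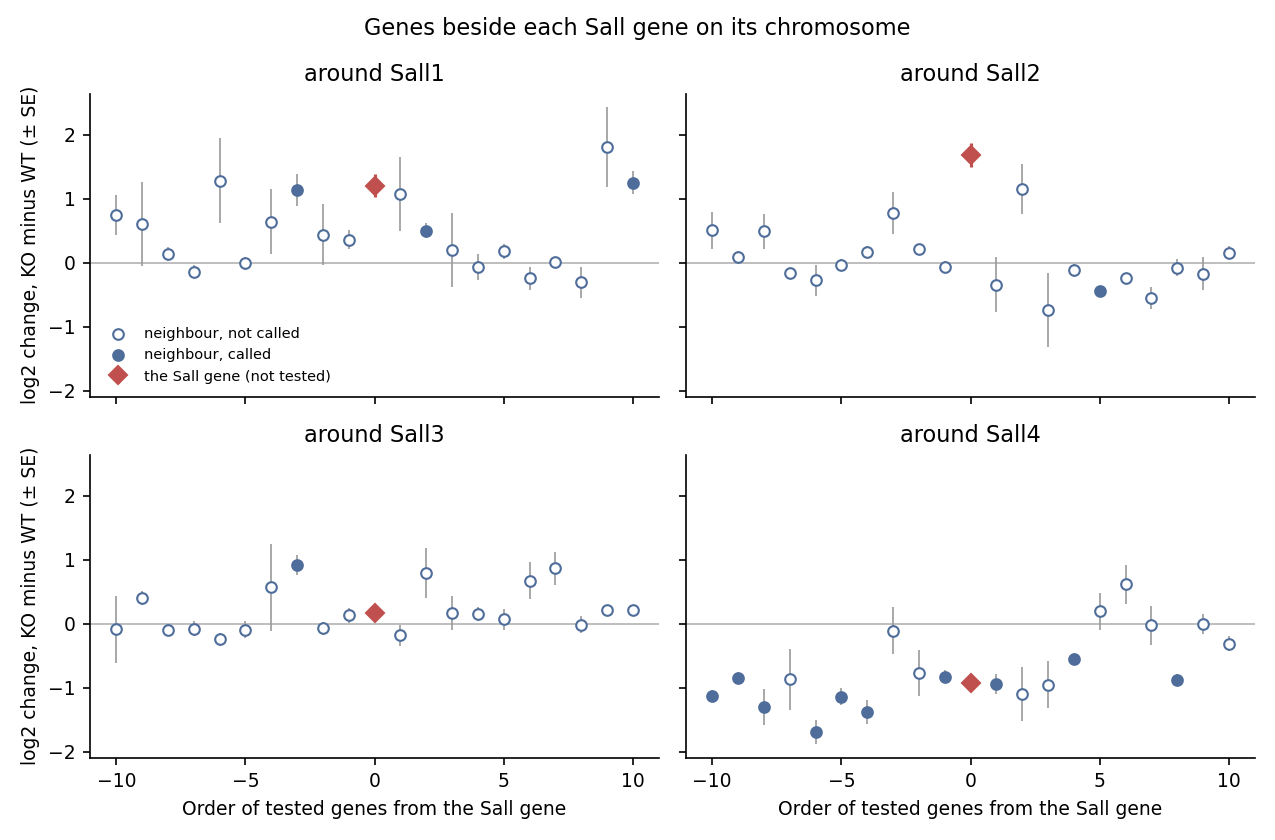
Log2 difference, KO minus WT, with SE (vertical axis) of the 10 tested genes on each side of Sall1, Sall2, Sall3 and Sall4, in chromosomal order (horizontal axis, order of tested genes counted from the Sall gene). Filled circles passed the test, open circles did not, and the diamond is the Sall gene; around Sall4, 10 filled circles lie below 0.

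NuRD is the complex that the N-terminal motif recruits. Of its 15 subunit genes, all tested, 1 rose and 0 fell, where 4.25% and 2.11% of all genes did. The list median was -0.02, with single genes between -0.47 and 0.57, and the mean of the clone contrasts called 3 higher and 3 lower. Mta1, a scaffold subunit, averaged 116 ± 14.1 CPM in KO and 84.9 ± 0.266 in WT (log2 difference 0.45 ± 0.12, adjusted p = 0.0499). That call stood at the threshold: it was lost with other size factors, with the replicate number as a block and without any of the libraries except the first of KO1. The next smallest p-values were those of Mta3 at -0.26 ± 0.10 (adjusted p = 0.149), Rbbp7, a histone binding subunit, at -0.23 ± 0.10 (adjusted p = 0.182) and the ATPase Chd5 at -0.47 ± 0.22 (adjusted p = 0.231). Between the clones 4 of the 15 were higher and 2 lower in KO2, where 6.62% and 7.71% of all genes were. The 6 calls became 1 without either KO2 library and 3 without either WT library.

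Of 12 factors that share the pluripotency network with Sall4, 0 rose and 1 fell, where 4.25% and 2.11% of all genes did. Among 12 genes, 1 call says little about the list. The list median was -0.24, against 0.00 over all genes tested. Tbx3, a T-box factor, averaged 311 ± 26.1 CPM in KO and 415 ± 20.02 in WT (-0.41 ± 0.09, adjusted p = 0.0280). Klf2 stood at -0.53 ± 0.15 (adjusted p = 0.0685), Sox2 at -0.30 ± 0.09 (adjusted p = 0.0691) and Prdm14, a repressor of differentiation genes, at -0.35 ± 0.12 (adjusted p = 0.115). The Tbx3 call was lost without either WT library or without the first KO2 library. Between the clones 3 of the 12 were higher and 0 lower in KO2, where 6.62% and 7.71% of all genes were, and without the first or the second KO1 library 6 or 5 were called.

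Of 10 trophectoderm factors 7 were tested, of which 3 fell and 0 rose, where 2.11% and 4.25% of all genes did. The list median was -0.21, and Elf5, Gata3 and Hand1 were too low to test. Cdx2, which drives trophectoderm, had 1.46 to 6.32 CPM in the KO libraries and 22.3 and 28.8 CPM in WT, without overlap (log2 difference -2.92 ± 0.40, adjusted p = 0.00355). Gata2 averaged 1.90 ± 0.370 CPM in KO and 7.62 ± 0.767 in WT (-1.99 ± 0.26, adjusted p = 0.00276). Tead4 averaged 56.3 ± 2.85 CPM in KO and 74.4 ± 1.71 in WT (-0.40 ± 0.09, adjusted p = 0.0279), and Eomes, at 0.56 ± 0.30, was not called (adjusted p = 0.299926). All 3 calls were lost without the first WT library, and the Tead4 call also without the second WT library or either KO2 library. Between the clones Cdx2 was higher in KO2 (log2 difference 1.38, adjusted p = 0.00893) and Eomes lower (-0.85, adjusted p = 0.00229), and the Cdx2 call was lost without the first KO2 library.

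Of 6 genes reported as targets of human SALL2, 1 rose and 1 fell, where 4.25% and 2.11% of all genes did. Cdkn2a, which encodes the cell cycle inhibitors p16 and p19Arf, had 20.7 to 29.5 CPM in the KO libraries and 2.51 and 3.39 CPM in WT (log2 difference 3.18 ± 0.23, adjusted p = 2.06e-04). Its call held in every alternative, with a highest adjusted p of 0.0105. Myc averaged 6.95 ± 1.48 CPM in KO and 16.9 ± 1.504 in WT (-1.28 ± 0.21, adjusted p = 0.00885), a call lost without either WT library. Pmaip1, which encodes the death-promoting protein Noxa, stood at -0.70 ± 0.38 (adjusted p = 0.314) and Bax at -0.17 ± 0.12 (adjusted p = 0.426). Between the clones 2 of the 6 were higher and 1 lower in KO2, where 6.62% and 7.71% of all genes were. The lower gene was Pmaip1, at -0.19 ± 0.17 from WT in KO1 and -1.51 ± 0.19 in KO2. Its difference, KO2 minus KO1, was -1.31 ± 0.19 (edgeR quasi-likelihood test, adjusted p = 2.06e-04). The direction of Cdkn2a and Myc was known from earlier results of these data when the list was drawn up.

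Human SALL4 protein is known to be destroyed through the cereblon ubiquitin ligase when thalidomide is given. Of the 5 genes of that ligase, 1 rose and 0 fell, where 4.25% of all genes rose and 2.11% fell. Cul4a, a cullin scaffold, averaged 64.7 ± 4.14 CPM in KO and 48.5 ± 2.34 in WT (0.42 ± 0.10, adjusted p = 0.0374), a call lost without either WT library, without either KO2 library or with the replicate number as a block. Cul4b stood at -0.25 ± 0.09 (adjusted p = 0.139), Ddb1 at -0.13 ± 0.10 (adjusted p = 0.472) and Crbn, which encodes cereblon itself, at -0.12 ± 0.11 (adjusted p = 0.565). Protein was not measured.

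**Figure D4:**
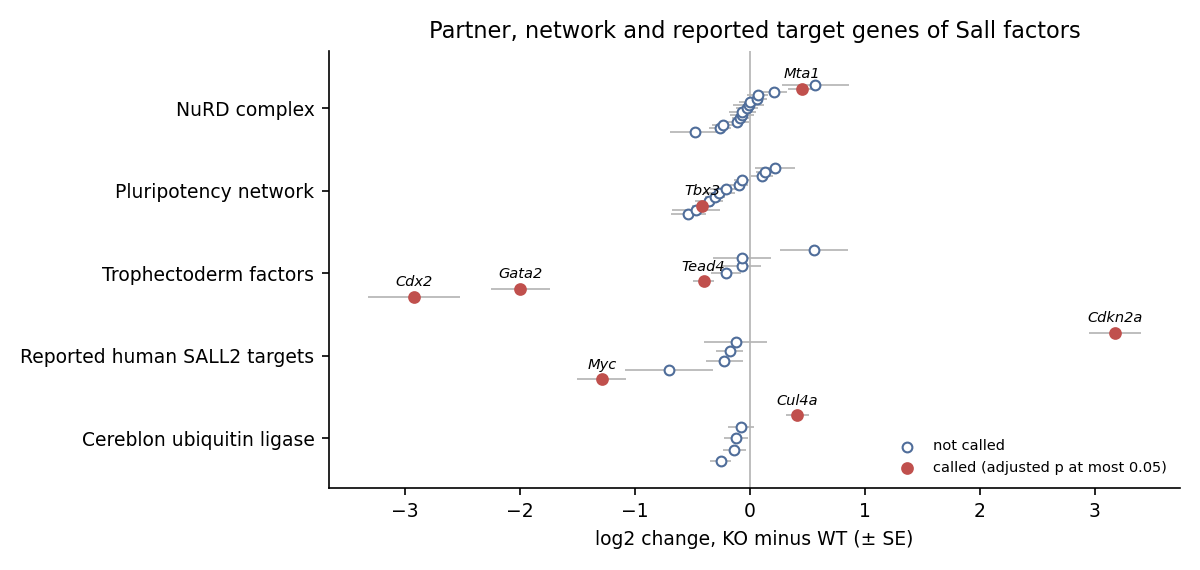
Log2 difference, KO minus WT, with SE (horizontal axis) of each tested gene of the NuRD complex, the pluripotency network, trophectoderm factors, reported human SALL2 targets and the cereblon ubiquitin ligase. Filled points passed the test at an adjusted p of 0.05: Mta1, Cdkn2a and Cul4a are above 0, and Tbx3, Cdx2, Gata2, Tead4 and Myc below.

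The genes whose levels followed each member most closely were found by the root mean square difference between centred log2 CPM profiles over the 6 libraries, among 11900 other genes. These are descriptions over few libraries that share the WT group. For Sall4 they were Col9a3, a collagen IX chain (0.04), B4galt5, a galactosyltransferase (0.06), and Ptgis, prostacyclin synthase (0.07). All 3 lie on chromosome 2 like Sall4, with B4galt5 at 1450 kb, Ptgis at 1557 kb and Col9a3, the closest in pattern, at 11849.5 kb from it. For Sall1 they were Pcdhgb5, a protocadherin whose cluster shares exons so that its reads are hard to assign (0.05), Prickle2, a planar polarity gene (0.06), and the long noncoding RNA Platr28 (0.08). Prickle2 had the same 3 steps as Sall1, with 24.8 and 26.5 CPM in KO2, 18.2 and 18.4 CPM in KO1 and 9.44 and 10.4 CPM in WT. For Sall2 they were Tes, a focal adhesion protein (0.11), Kcnt2, a potassium channel (0.14), and Arhgap44, a GTPase-activating protein (0.15). Some of these profiles rest on few reads. Kcnt2 had 17 to 22 counts in the KO libraries and 6 in each WT library. Pcdhgb5 had 41 to 62 counts in the KO libraries and 23 and 24 in WT. None of the genes closest to Sall1 or Sall2 lies on the chromosome of that member.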

How the data were processed

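RNA was measured in 6 libraries, 2 each of KO1, KO2 and WT. The authors deposited whole-number read counts per gene. Per the submitters' processing notes the build was mm10 and the tools included HTSeq 0.9.1 and HISAT2 2.1.0, with DESeq2 1.18.1 listed too and no role for any. Neither annotation nor strand setting of the counting is stated. Rows of reads with no feature (4.14% to 5.35% of all reads), ambiguous, of low quality, unaligned or aligned to several places were left out.

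From these counts, edgeR 4.0.16 (R 4.3.3, limma 3.58.1) was run with TMM scaling, filterByExpr and the quasi-likelihood F test, with p-values adjusted by Benjamini and Hochberg over 14946 genes at 0.05. The genotype fit set the 4 KO libraries, which come from 2 clones, against WT. It counted each library as a separate sample, so its p-values do not measure how far independent knockout clones vary. A fit of 3 groups gave KO2 minus KO1 and each clone against WT. Both fits were run on simulated data with planted differences. The planted genotype differences were equal in both clones, so variation between clones was not part of that check of the genotype fit. CPM used the TMM-scaled totals. Exon lengths and coding starts came from GENCODE M21 (GRCm38, equal to mm10) and promoter windows from a set of RefSeq GRCm38.p6 windows. The windows of Sall1 and Sall2 were used, and the set at hand held none for Sall4. No protein table, Sall4 promoter or sequence of Sall3 was used here.

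The members and all lists were chosen with earlier results of these data known. Named were, per list, the 4 genes of smallest p in the genotype comparison, beside each member the nearest tested gene on each side and up to 4 further called ones, and for Sall1, Sall2 and Sall4 the 3 genes of most like pattern (mean of at least 1 CPM, prior count 2, predicted genes passed over). A gene that this rule names and a coding start are not reported here. Alternatives were DESeq2 1.42.0, RLE size factors, no filter, the mean of the clone contrasts, the 4 clone libraries alone, a replicate block, each library left out, windows of 5 or 20 neighbours and the longest transcript as length.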

Additional observations from a re-analysis of the deposited data

Results flagged for a closer look

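The Sall1 difference was flagged because its level differed between the clones, which share the label of Bcat1 knockout. KO2 minus KO1 was 0.53 on the log2 scale, with 219 and 208 CPM in KO2 and 149.6 and 147 CPM in KO1. The Sall4 level of the first KO1 library was flagged because it stood apart from the other KO libraries, at 195 CPM against 221, 221 and 224 CPM. Its gap to the nearest library was 0.866 of the range of the 4 libraries, above Dixon's critical value for 4 samples. Chance flags about 1 in 20 groups of like samples, but these libraries come from 2 clones, and each of the 4 members was looked at. The KO1 libraries also differed from each other more widely than in Sall4. The squared difference between the libraries of a group, relative to counting noise alone, averaged 8.79 per gene in KO1, 3.27 in KO2 and 3.57 in WT.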

How the results depend on the processing

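No member changed direction under any alternative run. KO minus WT ranged from 1.09 to 1.29 for Sall1, 1.59 to 1.79 for Sall2, 0.13 to 0.21 for Sall3 and -0.95 to -0.88 for Sall4 (log2). The members were chosen for these differences in the same libraries, so their kept direction is no separate support. The Sall1 call between clones held in each alternative of that comparison. Counts of called genes moved more. The mean of the clone contrasts takes its spread within the 3 groups, so the difference between clones is not part of that spread. With the mean of the clone contrasts, the genotype comparison called 3226 genes against 951 (1777 higher and 1449 lower), and the lists called 6 NuRD genes, 5 network genes, 2 ligase genes and 5, 4 and 5 neighbours of Sall1, Sall2 and Sall3. Without the low-count filter it called 1752 genes, 4 network genes and 2 neighbours each of Sall2 and Sall3. DESeq2 called 1358 genes between clones against 2141, and between genotypes 3 network genes and 2 neighbours of Sall3. RLE size factors called 0 NuRD genes. With 5 neighbours on each side 1 was called beside Sall2 and 1 beside Sall3, and with 20 on each side 3 beside Sall3. Leaving out each library gave 79 to 948 genes between genotypes and 974 to 3155 between clones. The lists then held 0 to 1 NuRD, 0 to 2 network, 0 to 3 trophectoderm, 1 to 2 SALL2 target and 0 to 1 ligase genes, and the neighbours 0 to 3 beside Sall1, 0 to 1 beside Sall2, 0 to 1 beside Sall3 and 3 to 10 beside Sall4. With the longest transcript as length, Sall1 held 14.6% and Sall4 78.96% of the WT sum, and 39.6% and 49.5% of the KO sum on average. The cause of these shifts was not tested. Same-numbered libraries share only a number: their deviations correlated at 0.125 (KO1 and KO2), 0.0513 (KO1 and WT) and -0.0125 (KO2 and WT). The replicate block called 647 genes between genotypes and 3007 between clones, 0 NuRD, 2 network and 0 ligase genes. Sall2, at 56 to 197 counts per library, is the member whose precision depth limits most.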
